A study of Mus musculus with 8 samples.

Results

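The genes described here encode the machinery of cell division: the kinases and cyclins that start mitosis, the kinetochore and its checkpoint, spindle motors, the cytokinesis apparatus, anaphase regulators and the proteins that shape mitotic chromosomes. The 45 members were taken by symbol from a written list that was drawn up with earlier results of these data known, and all 45 were found among the 12528 genes of the deposited RNA-seq table and passed the filter on low values (1 CPM or more in 2 libraries or more, where CPM are counts scaled to library size). The cells were mouse embryonic fibroblasts (MEFs) isolated from wild-type (WT) mice or from littermates that lack caveolin-1 (Cav1KO), the coat protein of caveolae, and the study's methods state that the lines were immortalized. Cells of each genotype were seeded at low confluence on stiff or on soft polyacrylamide gels and their RNA was collected 24 h later, which gives 4 groups of 2 libraries, named by genotype and gel (WT stiff and WT soft, Cav1KO stiff and Cav1KO soft). No other treatment is given, all groups share the gel material and the time point, and the labels do not say whether the 2 libraries of a group came from separate cultures, so p-values measure only the spread between these libraries. The sources used here do not give how many lines stand for each genotype, and differences between the genotypes cannot be told apart from differences between lines.

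Most of these genes are silent outside the cell cycle and are transcribed late in it, so that their transcripts peak as cells enter mitosis. In resting cells the DREAM complex, which holds the MuvB core, represses many of them through a promoter element named CHR (cell cycle genes homology region). In cycling cells MuvB joins B-Myb (Mybl2) and FoxM1 and the same genes are activated, often together with the factor NF-Y, which binds CCAAT boxes. In a culture, the level of these transcripts therefore depends on how many cells are in G2 and mitosis, and in bulk RNA fewer such cells and less RNA per cell cannot be told apart.

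Promoters are shown because many of the members moved together. RefSeq promoters of the GRCm38.p6 build (250 bases before the start and 50 after it, 300 in all) were matched by symbol for 37 of the 45 members. Each was searched on both strands for the CHR (TTTGAA or TTCGAA) and for CCAAT, with overlapping matches of the same motif counted once. A CHR and a CCAAT match can share an end letter, and TTCGAA reads the same on both strands. A CHR was found in 29 of the 37 promoters (78.4%) against 19.4% of all 27025 promoters, and a CCAAT box in 29 (78.4%) against 37.9%. Both motifs were present in 26 members (70.3%) against 7.7% of all promoters, and 2 or more CCAAT boxes in 19 (51.4%) against 12%. An E2F-type sequence (TTT, then CC, GG, CG or GC, then CGC) was found in 4 members (10.8%) against 2.32%. A match is a description of letters and not of binding. For 6 members, the 250 bases before the start and the first 30 bases from it are printed 5′ to 3′ with CHR and CCAAT matches, on either strand, in capitals. Cdk1, Cdc20 and Espl1 stand for the genes that were called higher on stiff gels in both genotypes. Top2a, Mki67 and Cenpe are those whose stiffness effect was called different between the genotypes. The regions are chr10:69352883-69353162 on the minus strand (Cdk1), chr4:118437314-118437593 on the minus strand (Cdc20), chr15:102296043-102296322 on the plus strand (Espl1), chr11:99024160-99024439 on the minus strand (Top2a), chr7:135716350-135716629 on the minus strand (Mki67) and chr3:135212313-135212592 on the plus strand (Cenpe).
Cdk1: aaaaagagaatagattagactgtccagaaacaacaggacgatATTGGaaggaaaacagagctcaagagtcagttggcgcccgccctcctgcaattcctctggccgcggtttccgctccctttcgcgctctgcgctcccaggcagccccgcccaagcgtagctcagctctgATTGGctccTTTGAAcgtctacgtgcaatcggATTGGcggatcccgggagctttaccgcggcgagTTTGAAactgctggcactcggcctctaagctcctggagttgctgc
Cdc20: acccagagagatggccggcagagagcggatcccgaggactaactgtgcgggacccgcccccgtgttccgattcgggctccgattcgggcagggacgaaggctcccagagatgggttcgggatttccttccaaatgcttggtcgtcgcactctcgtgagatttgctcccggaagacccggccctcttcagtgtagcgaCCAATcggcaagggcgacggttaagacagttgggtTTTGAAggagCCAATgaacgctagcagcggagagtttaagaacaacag
Espl1: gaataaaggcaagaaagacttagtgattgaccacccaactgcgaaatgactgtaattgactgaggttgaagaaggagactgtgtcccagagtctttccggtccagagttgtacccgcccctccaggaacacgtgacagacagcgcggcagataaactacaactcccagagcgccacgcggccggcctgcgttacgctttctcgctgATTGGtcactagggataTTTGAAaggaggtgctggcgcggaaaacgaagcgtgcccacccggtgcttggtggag
Top2a: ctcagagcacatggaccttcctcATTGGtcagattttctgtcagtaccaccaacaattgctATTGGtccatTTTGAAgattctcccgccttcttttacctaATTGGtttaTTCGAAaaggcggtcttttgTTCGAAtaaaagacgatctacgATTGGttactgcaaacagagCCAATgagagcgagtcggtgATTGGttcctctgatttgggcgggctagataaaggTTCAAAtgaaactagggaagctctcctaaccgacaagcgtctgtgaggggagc
Mki67: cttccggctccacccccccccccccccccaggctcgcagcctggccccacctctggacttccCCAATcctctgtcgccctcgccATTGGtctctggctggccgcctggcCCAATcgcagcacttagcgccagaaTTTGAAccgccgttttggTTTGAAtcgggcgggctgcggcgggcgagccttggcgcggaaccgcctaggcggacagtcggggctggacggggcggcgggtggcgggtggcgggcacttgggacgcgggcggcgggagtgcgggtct
Cenpe: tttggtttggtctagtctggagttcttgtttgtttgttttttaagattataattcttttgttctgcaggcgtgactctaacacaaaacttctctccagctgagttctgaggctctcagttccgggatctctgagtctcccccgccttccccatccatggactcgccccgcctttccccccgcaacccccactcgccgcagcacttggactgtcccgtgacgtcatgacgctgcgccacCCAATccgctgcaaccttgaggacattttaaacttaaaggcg

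In these windows the Cdk1 promoter has 2 CHR and 3 CCAAT matches, with the CHR nearest the start beginning at -15 relative to the start base. Cdc20 has 1 CHR at -18 and 2 CCAAT boxes. Espl1 has 1 CHR at -27 and 1 CCAAT box, and Top2a has 4 CHR matches, the nearest at -23, and 6 CCAAT boxes. Mki67 has 2 CHR and 3 CCAAT matches, and Cenpe has 1 CCAAT box and no CHR match. Both motifs occur in the printed windows of Cdk1, Cdc20, Espl1, Top2a and Mki67 and not in that of Cenpe. Whether the motifs go with the response to stiffness was not tested. The members with a promoter in the table and no CHR match were Ccnb1, Nek2, Mad2l1, Cenpe, Nuf2, Birc5, Kif18a and Mybl2. All of these except Cenpe and Kif18a were called higher on stiff gels in both genotypes.

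The libraries held 17089836 to 19944952 reads, recovered from the deposited CPM, whose values were whole multiples of the value of 1 read in each library. The members had between 32 and 7294 reads per library. Cav1 was at 949.8 to 1157 CPM in WT and at 0.411 CPM or less in Cav1KO libraries. Of 11 fibroblast markers 8 were in the table, led by Vim or Col1a2, with sums of 8796 to 9035 CPM in WT stiff, 11182 to 11380 in WT soft, 4397 to 5530.2 in Cav1KO stiff and 13302 to 13344 in Cav1KO soft. These sums were thus higher on soft than on stiff gels, opposite to the cyclins and their kinases, and their part in the results was not tested. Of 6 macrophage markers 1 was listed (Cd68, 0.552 to 4.55 CPM), and none of the 6 epithelial, 4 endothelial and 4 muscle markers was in the table. The library kit keeps no strand, and exons of Ccna2, Plk1, Nek2, Cdca8, Kif18a, Kif4, Kif20a, Prc1, Cdc20, Ube2c and Ncapg overlap annotated exons on the other strand, and those of Top2a, Ncapd2 and Foxm1 exons on the same strand, so that reads there cannot be assigned with certainty.

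The first comparison asked how substrate stiffness changed the mitosis genes in WT cells. Of the 45 members, 33 were higher on stiff than on soft gels and 0 were lower (limma on log2(CPM + 1), adjusted p below 0.05), and their median difference was 0.56 on the log2 scale. Over all 12494 genes tested, 22.1% were called higher, 26.3% were called lower and the median was -0.02. At an unadjusted p below 0.05 limma also gave 33 higher and 0 lower, and edgeR on the recovered reads called 31 higher and 0 lower. WT stiff was the group with the highest mean for 33 members, and the share of all genes highest in that group was not counted. Summed over the members, the 2 WT stiff libraries had 5531 and 5302 CPM and those of WT soft 3314 and 4177 CPM. In this sum the 2 WT soft libraries differed by more than the 2 WT stiff libraries. Without WT soft 1 the test called 14 of the members, and without WT stiff 1 it called 20, with no change of direction among the 33.

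In Cav1KO cells members were called in both directions. On stiff gels 20 members were higher and 5 lower than on soft gels, against 27.9% and 28.2% of all genes, and the median difference was 0.25. The 5 that fell were Cenpe, Ndc80, Top2a, Smc4 and Mki67. The sum over the members was 4286 and 4039 CPM on stiff and 3269 and 3239 CPM on soft gels. The Cav1KO soft libraries thus had the lowest CPM sums of the series. As a share of all signal in a library, WT soft 1 was the lowest, at 0.321%. The Cav1KO soft libraries had 0.349% and 0.344%. Cav1KO soft was the group with the lowest mean for 24 members, and the share of all genes lowest in that group was not counted. The count of 5 lower members was 9 without Cav1KO stiff 1, 0 without Cav1KO stiff 2, 0 without Cav1KO soft 1 and 2 without Cav1KO soft 2. In each of these fits the 25 members called kept the sign of their difference.

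Set side by side, 18 members were called higher on stiff gels in both genotypes (Ccna2, Ccnb1, Cdk1, Aurka, Nek2, Bub1, Mad2l1, Cenpa, Nuf2, Spc24, Birc5, Cdca8, Ect2, Racgap1, Cdc20, Espl1, Ncapg and Mybl2). A further 13 were called higher in WT and were not called in Cav1KO (Plk1, Ttk, Bub1b, Kif2c, Tpx2, Hmmr, Kif20a, Kif23, Anln, Ube2c, Smc2, Ncapd2 and Foxm1), which does not show that the genotypes differ. Ccnb2 and Aurkb were called higher in Cav1KO alone. Of all genes 22.1% were called higher in WT and 27.9% in Cav1KO. The shares of all genes called in both genotypes or in WT alone were not counted. The difference between the stiffness effects, WT minus Cav1KO, was tested as an interaction: 3 members were called, all positive (Cenpe, Top2a and Mki67), against 4.47% of all genes with a positive and 6% with a negative call. None of the members had a negative call by limma, and edgeR called 3 positive and 0 negative. At an unadjusted p below 0.05 limma gave 17 positive and 3 negative, and the share of all genes passing that p was not counted. The share of members called, 6.67%, is near that of all genes. With a replicate block in the fit the same 3 were called positive and Ccnb2 (-0.44), Mad2l1 (-0.41) and Cenpa (-0.61) negative.

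**Figure D1:**
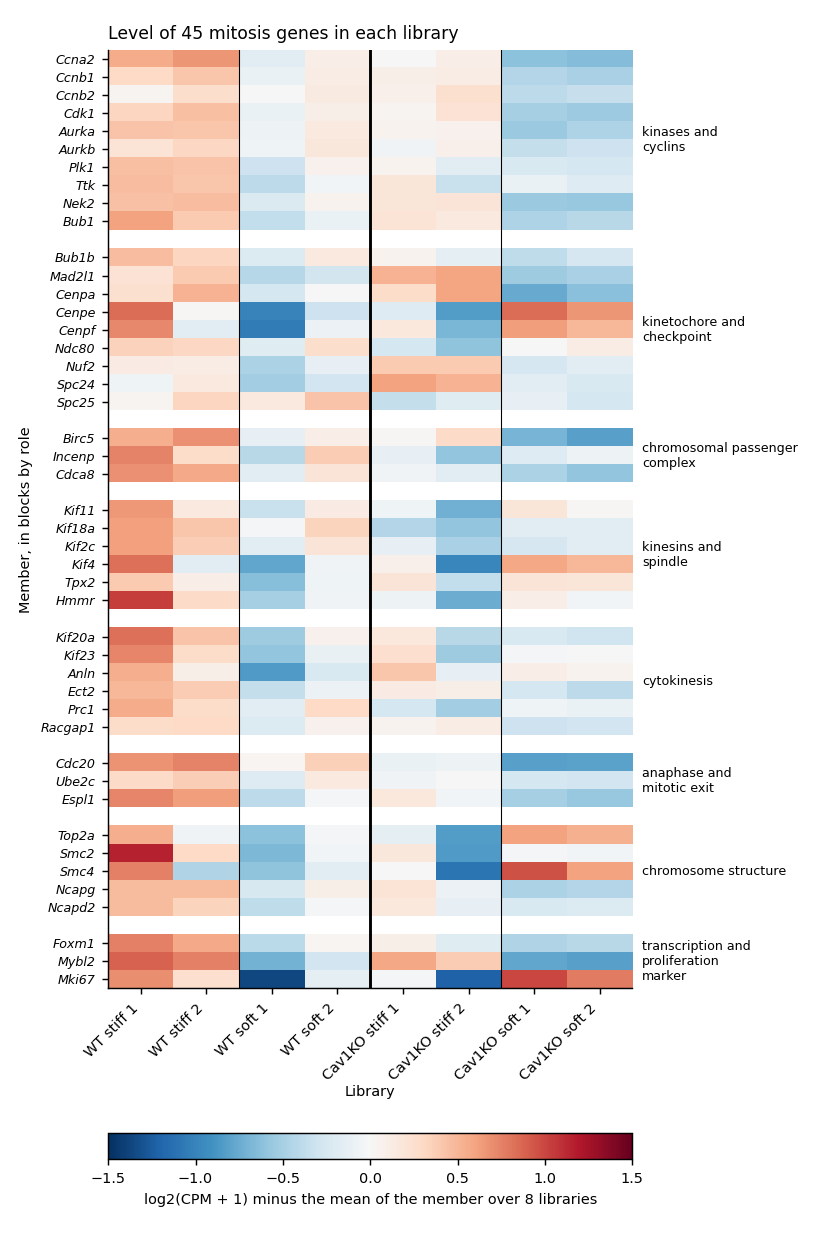
Level of each of the 45 members (rows, in blocks by role) in each of the 8 libraries (columns), as log2(CPM + 1) minus the mean of that member over the libraries (colour scale from -1.5 to 1.5). The WT stiff columns are mostly above the mean (red), while Cenpe, Cenpf, Kif4, Top2a, Smc4 and Mki67 are red in the Cav1KO soft columns, where the cyclins and their kinases are blue.

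**Figure D2:**
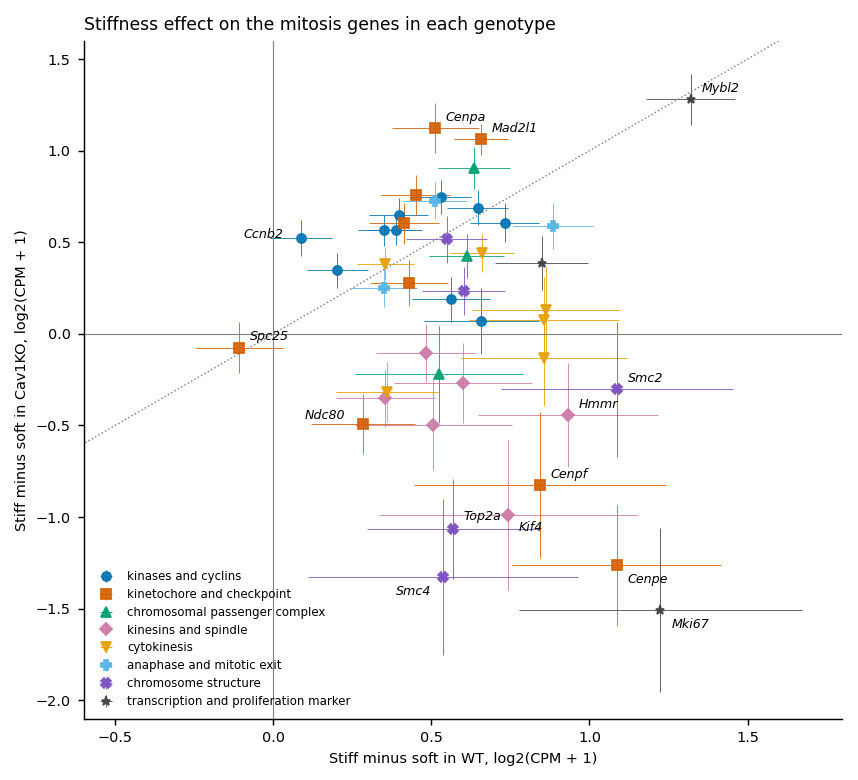
Stiff minus soft difference of each member in WT (horizontal axis) and in Cav1KO (vertical axis), both in log2(CPM + 1), with bars of 1 SE and symbols by role. The dotted line marks equal effects. Most members lie to the right of 0, with Mybl2 at 1.32 and 1.28, and Cenpe, Mki67, Top2a and Smc4 lie at -1.06 or lower on the Cav1KO axis.

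Of the 10 kinases and cyclins, 8 were called higher on stiff gels in WT, 8 in Cav1KO and 0 lower in either. That is 80% higher in each genotype, against 22.1% of all genes in WT and 27.9% in Cav1KO. Medians were 0.46 in WT and 0.57 in Cav1KO, limma gave 0 lower at an unadjusted p below 0.05 in each, and edgeR called the same number of members, 8 and 8. Of the 8 calls in WT, 5 remained without WT stiff 2 or without WT soft 1, where Ccnb1, Cdk1 and Ttk were lost. The role's summed level was 1641 and 1723 CPM in WT stiff libraries, 1132 and 1338 in WT soft, 1309 and 1344 in Cav1KO stiff and 907 and 902 in Cav1KO soft. Both genotypes were higher on stiff gels, and Cav1KO was below WT on each substrate. Cdk1, the kinase that drives entry into mitosis, was at 205 and 225 CPM in WT stiff libraries, 152 and 174 CPM in WT soft, 169 and 190.3 CPM in Cav1KO stiff and 116 and 112 CPM in Cav1KO soft. Its stiffness effect was 0.40 (SE 0.09, limma adjusted p = 0.00831) in WT and 0.65 (SE 0.09, limma adjusted p = 0.000529) in Cav1KO, and none of the 4 pairs of groups compared overlapped. Ccnb1, cyclin B1, the partner that activates Cdk1, was at 284 and 309 CPM in WT stiff libraries, 216 and 249 CPM in WT soft, 247 and 251 CPM in Cav1KO stiff and 170.3 and 165 CPM in Cav1KO soft. Its levels followed the same order, with effects of 0.35 (SE 0.08, limma adjusted p = 0.00881) and 0.57 (SE 0.08, limma adjusted p = 0.000612). Of the 60-base windows of its transcript, 39.18% also occur in pseudogenes, so its counts are uncertain. Ccna2, cyclin A2, which acts from S phase to early mitosis, was at 366 and 393 CPM in WT stiff libraries, 219.7 and 267 CPM in WT soft, 249.9 and 266 CPM in Cav1KO stiff and 161 and 158 CPM in Cav1KO soft. It rose by 0.65 on the log2 scale in WT (SE 0.10, limma adjusted p = 0.000867) and by 0.69 in Cav1KO (adjusted p = 0.000457).

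Aurka, the Aurora kinase of the spindle poles, was at 174 and 173 CPM on stiff and 123 and 143 on soft gels in WT, and 135 and 135 on stiff and 87.7 and 93.4 on soft gels in Cav1KO. It was higher on stiff gels in WT by 0.39 (SE 0.08, limma adjusted p = 0.00565) and in Cav1KO by 0.57 (SE 0.08, limma adjusted p = 0.000609). Nek2, a kinase that helps to separate the centrosomes, had 108 and 109.9 CPM on stiff and 68.4 and 82.4 on soft gels in WT, and 89.9 and 90.9 on stiff and 53.7 and 53.4 on soft gels in Cav1KO, with effects of 0.53 (SE 0.09, limma adjusted p = 0.00185) and 0.74 (SE 0.09, limma adjusted p = 0.000239). Both stiff libraries exceeded both soft libraries in each genotype for these 2 kinases. Bub1, a checkpoint kinase at the kinetochore, was at 93.7 and 80.8 CPM on stiff and 47.4 and 57.1 on soft gels in WT, and 70.6 and 67.8 on stiff and 44.2 and 45.9 on soft gels in Cav1KO. Its WT effect of 0.73 (SE 0.11, limma adjusted p = 0.000825) was the largest of the role in WT, and its Cav1KO effect was 0.61 (SE 0.11, limma adjusted p = 0.00162). Plk1, polo-like kinase 1, which acts from mitotic entry to cytokinesis, was at 175 and 172 CPM in WT stiff libraries, 103 and 134 CPM in WT soft, 133 and 113 CPM in Cav1KO stiff and 109 and 106 CPM in Cav1KO soft. It rose on stiff gels in WT, with a difference of 0.56 (SE 0.12, limma adjusted p = 0.00566), and had a difference of 0.19 (SE 0.12, limma adjusted p = 0.224) in Cav1KO. Aurkb, the Aurora kinase that corrects faulty attachments of chromosomes, was at 95.1 and 103 CPM in WT stiff libraries, 79.1 and 93.2 CPM in WT soft, 79.9 and 87.1 CPM in Cav1KO stiff and 64.5 and 66.3 CPM in Cav1KO soft. The test called it in Cav1KO (0.35 (SE 0.10, limma adjusted p = 0.0144)) and gave 0.20 (SE 0.10, limma adjusted p = 0.115) in WT. Of the 2 members of the role without full values here, Ccnb2 (cyclin B2) had a WT difference of 0.09 and a called Cav1KO difference of 0.52, and Ttk, the checkpoint kinase Mps1, had a called WT difference of 0.66 and a Cav1KO difference of 0.07 (limma adjusted p = 0.77).

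Of the 9 kinetochore and checkpoint genes, 6 were called higher on stiff gels in WT and 0 lower (0 at an unadjusted p below 0.05 by limma and 0 by edgeR). These are 66.7% and 0%, against 22.1% and 26.3% of all genes. In Cav1KO 4 were higher and 2 lower, 44.4% and 22.2% against 27.9% and 28.2% of all genes. Of the 6 calls in WT, 3 remained without WT stiff 1, 3 without WT stiff 2 and 1 (Mad2l1) without WT soft 1. Mad2l1, Mad2, which holds back anaphase until chromosomes are attached, was at 156 and 175 CPM in WT stiff libraries, 99.0 and 110.3 CPM in WT soft, 192 and 202 CPM in Cav1KO stiff and 92.3 and 95.4 CPM in Cav1KO soft. It rose on stiff gels by 0.66 on the log2 scale in WT (SE 0.09, limma adjusted p = 0.000438) and by 1.06 in Cav1KO (SE 0.09, limma adjusted p = 3.19e-05). Cenpa, the histone H3 variant that marks centromeres, was at 230.4 and 279 CPM in WT stiff libraries, 162 and 194 CPM in WT soft, 236 and 294 CPM in Cav1KO stiff and 115 and 126 CPM in Cav1KO soft. Its effects were 0.51 (SE 0.14, limma adjusted p = 0.0148) in WT and 1.12 (SE 0.14, limma adjusted p = 0.000221) in Cav1KO, and the Cav1KO soft libraries were the lowest. Bub1b, BubR1, a part of the checkpoint complex that inhibits Cdc20, was at 135 and 122 CPM in WT stiff libraries, 84.3 and 107 CPM in WT soft, 101 and 88.6 CPM in Cav1KO stiff and 74.3 and 81.4 CPM in Cav1KO soft. It rose in WT (0.43 (SE 0.12, limma adjusted p = 0.0199)) and differed by 0.28 (SE 0.12, limma adjusted p = 0.0867) in Cav1KO.

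The 4 subunits of the NDC80 complex, which binds microtubule ends, did not share a pattern. Spc24 was at 41.5 and 48.1 CPM in WT stiff libraries, 29.8 and 35.3 CPM in WT soft, 66.1 and 62.4 CPM in Cav1KO stiff and 38.5 and 36.7 CPM in Cav1KO soft, with called stiffness effects of 0.45 in WT and 0.76 in Cav1KO. Nuf2 was likewise called in both genotypes, at 0.41 and 0.60. Ndc80 was at 31.4 and 30.7 CPM in WT stiff libraries, 21.6 and 29.8 CPM in WT soft, 20.3 and 15.8 CPM in Cav1KO stiff and 24.6 and 26.6 CPM in Cav1KO soft. It had a WT difference of 0.28 (SE 0.16, limma adjusted p = 0.188) and fell on stiff gels in Cav1KO, with -0.49 (SE 0.16, limma adjusted p = 0.0313) and no overlap between the libraries. Spc25 had differences of -0.11 and -0.07, with 95% confidence intervals of -0.42 to 0.21 and -0.39 to 0.24, and was not called in either genotype. Whether these subunits differ from each other was not tested. Spc24 shares 6.35% of its windows with other listed genes and Ndc80 2.71%.

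The 2 large kinetochore proteins had their highest group mean in Cav1KO soft, where the cyclins had their lowest. Cenpe, the kinesin that carries chromosomes to the spindle equator, was at 11.2 and 5.93 CPM in WT stiff libraries, 2.42 and 4.51 CPM in WT soft, 5.0 and 2.85 CPM in Cav1KO stiff and 11.3 and 9.82 CPM in Cav1KO soft. Its 2 WT stiff libraries were above the WT soft libraries, and the order was opposite in Cav1KO. The difference was 1.09 (SE 0.33, limma adjusted p = 0.0248) in WT and -1.26 (SE 0.33, limma adjusted p = 0.0108) in Cav1KO. The interaction was 2.35 (SE 0.47, limma adjusted p = 0.0261). Cenpf, a large coiled-coil protein of the outer kinetochore, was at 9.04 and 4.39 CPM in WT stiff libraries, 1.93 and 4.73 CPM in WT soft, 5.77 and 2.79 CPM in Cav1KO stiff and 8.36 and 7.61 CPM in Cav1KO soft. Its differences of 0.84 (SE 0.40, limma adjusted p = 0.113) and -0.83 (SE 0.40, limma adjusted p = 0.11) did not pass the test. These 2 genes had the fewest reads of the members, from 32 per library.

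The chromosomal passenger complex, which moves from centromeres to the spindle midzone, has 3 members beside its kinase Aurkb. Its summed level without Aurkb was 303 and 294 CPM in WT stiff libraries, 171 and 222 in WT soft, 191 and 199 in Cav1KO stiff and 135 and 129.5 in Cav1KO soft. Birc5, survivin, was at 147 and 163 CPM in WT stiff libraries, 91.8 and 107 CPM in WT soft, 102 and 123 CPM in Cav1KO stiff and 61.6 and 56.9 CPM in Cav1KO soft. It was higher on stiff gels by 0.63 (SE 0.11, limma adjusted p = 0.00225) in WT and by 0.90 (SE 0.11, limma adjusted p = 0.000266) in Cav1KO. Cdca8, borealin, was called higher in both, at 0.61 and 0.42. Incenp, the scaffold of the complex, was at 60.2 and 43.0 CPM in WT stiff libraries, 26.4 and 46.6 CPM in WT soft, 32.4 and 23.2 CPM in Cav1KO stiff and 30.8 and 33.6 CPM in Cav1KO soft. Its libraries overlapped between substrates in each genotype, with differences of 0.52 (SE 0.27, limma adjusted p = 0.136) and -0.22 (SE 0.27, limma adjusted p = 0.51).

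Of the 6 kinesins and spindle proteins, 3 were higher on stiff gels in WT (Kif2c, Tpx2 and Hmmr) and 0 lower (0 at an unadjusted p below 0.05 by limma), edgeR called 2 higher and 0 lower, and in Cav1KO 0 were called in either direction by limma and by edgeR, with 0 higher and 1 lower at an unadjusted p below 0.05. None of the 3 calls in WT remained without WT stiff 1 or without WT soft 1 (limma), and 1 (Hmmr) remained without either Cav1KO soft library. The share called in WT was 50% higher and 0% lower, against 22.1% and 26.3% of all genes. All 6 members of the role had a negative estimate in Cav1KO, from -0.99 to -0.10, and a positive one in WT, from 0.35 to 0.93. The interaction called 0 of them by limma and 0 by edgeR, so a difference between genotypes was not shown at the threshold. At an unadjusted p below 0.05 by limma 6 passed, and the share of all genes passing that p was not counted. Kif11, Eg5, the motor that pushes the spindle poles apart, was at 55.7 and 38.9 CPM in WT stiff libraries, 27.6 and 38.3 CPM in WT soft, 33.5 and 20.8 CPM in Cav1KO stiff and 40.0 and 35.5 CPM in Cav1KO soft. Its differences were 0.51 (SE 0.25, limma adjusted p = 0.123) in WT and -0.50 (SE 0.25, limma adjusted p = 0.121) in Cav1KO. Tpx2, which activates Aurka and nucleates microtubules at chromosomes, was at 145 and 118 CPM in WT stiff libraries, 69.9 and 105 CPM in WT soft, 126 and 84.8 CPM in Cav1KO stiff and 125 and 124 CPM in Cav1KO soft, and its WT rise was 0.60 (SE 0.22, limma adjusted p = 0.0487). In Cav1KO its libraries overlapped, with -0.27 (SE 0.22, limma adjusted p = 0.323). Hmmr, a spindle-associated protein that also binds hyaluronan, was at 42.5 and 24.9 CPM in WT stiff libraries, 14.1 and 19.5 CPM in WT soft, 19.2 and 11.7 CPM in Cav1KO stiff and 21.9 and 19.7 CPM in Cav1KO soft. WT stiff 1 was the highest library for this gene. The WT difference was 0.93 (SE 0.28, limma adjusted p = 0.025) and the Cav1KO difference -0.45 (SE 0.28, limma adjusted p = 0.213). Kif4, a motor on chromosome arms and the midzone, was at 19.7 and 9.35 CPM in WT stiff libraries, 5.80 and 10.3 CPM in WT soft, 11.3 and 4.93 CPM in Cav1KO stiff and 16.5 and 15.4 CPM in Cav1KO soft. Its differences were 0.74 (SE 0.41, limma adjusted p = 0.166) and -0.99 (SE 0.41, limma adjusted p = 0.0686), neither called. Kif2c, which takes apart microtubules at centromeres, and Kif18a, which limits chromosome swings, were the other 2, and Kif18a was not called in either genotype (limma adjusted p = 0.093 and 0.0861).

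Among the 6 cytokinesis genes, 5 were higher on stiff gels in WT and 2 in Cav1KO (Ect2 and Racgap1), with 0 lower in either (limma, also 0 at an unadjusted p below 0.05, and 0 by edgeR). These are 83.3% higher in WT and 33.3% in Cav1KO, against 22.1% and 27.9% of all genes. Of the 5 calls in WT, 2 remained without WT stiff 1 and 1 (Ect2) without WT soft 1. Ect2, which activates RhoA at the cell equator, was at 132 and 123 CPM in WT stiff libraries, 73.0 and 88.4 CPM in WT soft, 103 and 100.1 CPM in Cav1KO stiff and 78.0 and 70.9 CPM in Cav1KO soft. It rose by 0.66 on the log2 scale in WT (SE 0.10, limma adjusted p = 0.000999) and by 0.44 in Cav1KO (SE 0.10, limma adjusted p = 0.00591). Kif23, the motor of centralspindlin, was at 64.1 and 46.5 CPM in WT stiff libraries, 25.0 and 35.4 CPM in WT soft, 45.9 and 26.1 CPM in Cav1KO stiff and 37.7 and 38.3 CPM in Cav1KO soft. It rose in WT (0.86 (SE 0.26, limma adjusted p = 0.0261)), and its Cav1KO libraries overlapped, with -0.13 (SE 0.26, limma adjusted p = 0.705). Racgap1, its partner in centralspindlin, was called in both genotypes, at 0.35 and 0.38, with 7.15% of its windows shared with other listed genes. Anln, anillin, the scaffold of the contractile ring, was at 115 and 83.8 CPM in WT stiff libraries, 43.1 and 67.1 CPM in WT soft, 105 and 72.2 CPM in Cav1KO stiff and 84.1 and 81.2 CPM in Cav1KO soft. The WT difference was 0.86 (SE 0.24, limma adjusted p = 0.017) and the Cav1KO difference 0.07 (SE 0.24, limma adjusted p = 0.817). Kif20a, a motor that brings the passenger complex to the midzone, was at 141 and 107 CPM in WT stiff libraries, 54.4 and 82.5 CPM in WT soft, 88.7 and 58.8 CPM in Cav1KO stiff and 67.4 and 64.3 CPM in Cav1KO soft. Its pattern was like that of Anln, with 0.86 (SE 0.23, limma adjusted p = 0.0151) and 0.13 (SE 0.23, limma adjusted p = 0.662). Prc1, which bundles midzone microtubules, was at 100.5 and 82.5 CPM in WT stiff libraries, 60.0 and 83.5 CPM in WT soft, 56.2 and 46.9 CPM in Cav1KO stiff and 64.8 and 63.5 CPM in Cav1KO soft. It was not called in WT (0.36 (SE 0.16, limma adjusted p = 0.0985)) or in Cav1KO (-0.32 (SE 0.16, limma adjusted p = 0.128)).

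The 3 anaphase genes were called higher on stiff gels in WT, and 2 of them in Cav1KO, where all genes had 22.1% and 27.9%. Cdc20, the activator of the anaphase-promoting complex (APC/C), was at 318 and 334 CPM in WT stiff libraries, 204 and 256 CPM in WT soft, 187 and 189.7 CPM in Cav1KO stiff and 113 and 114 CPM in Cav1KO soft. Its effects were 0.51 (SE 0.10, limma adjusted p = 0.00349) in WT and 0.73 (SE 0.10, limma adjusted p = 0.000433) in Cav1KO, and the Cav1KO soft libraries lay below all others. Espl1, separase, the protease that cuts cohesin, was at 124 and 115 CPM in WT stiff libraries, 56.2 and 73.6 CPM in WT soft, 82.9 and 72.3 CPM in Cav1KO stiff and 52.3 and 49.9 CPM in Cav1KO soft. It rose on stiff gels by 0.89 on the log2 scale in WT (SE 0.13, limma adjusted p = 0.000692) and by 0.59 in Cav1KO (SE 0.13, limma adjusted p = 0.00421). Ube2c, the ubiquitin-conjugating enzyme of the APC/C, was at 243 and 257 CPM in WT stiff libraries, 174 and 220.4 CPM in WT soft, 192 and 200.4 CPM in Cav1KO stiff and 166 and 163 CPM in Cav1KO soft. Its WT rise was 0.35 (SE 0.11, limma adjusted p = 0.024), and its Cav1KO difference was 0.25 (SE 0.11, limma adjusted p = 0.0715). Cdc20 shares 7.67% of its windows with a pseudogene.

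Of the 5 chromosome structure genes, 3 were called higher on stiff gels in WT (Smc2, Ncapg and Ncapd2), of which 1 (Ncapd2) remained without WT soft 1. In Cav1KO 1 was called higher and 2 lower, and of these 3 calls none remained without Cav1KO soft 1 and 1 (Ncapg) without Cav1KO stiff 2. The share called higher in WT was 60%, against 22.1% of all genes. In Cav1KO the shares were 20% higher and 40% lower, against 27.9% and 28.2%. Top2a, topoisomerase II alpha, which untangles sister chromatids, was at 238 and 156 CPM in WT stiff libraries, 106 and 159 CPM in WT soft, 147 and 90.6 CPM in Cav1KO stiff and 248 and 236 CPM in Cav1KO soft. Its highest levels were in WT stiff 1 and in both Cav1KO soft libraries. In WT the libraries overlapped between substrates, with 0.57 (SE 0.27, limma adjusted p = 0.117), and in Cav1KO it fell on stiff gels, with -1.06 (SE 0.27, limma adjusted p = 0.00972). The interaction was 1.63 (SE 0.38, limma adjusted p = 0.039). Smc4, a core ATPase of condensin, which compacts chromosomes, was at 37.7 and 15.8 CPM in WT stiff libraries, 14.1 and 19.5 CPM in WT soft, 21.8 and 9.76 CPM in Cav1KO stiff and 43.3 and 33.9 CPM in Cav1KO soft. It too fell on stiff gels in Cav1KO (-1.33 (SE 0.43, limma adjusted p = 0.0267)), with 0.54 (SE 0.43, limma adjusted p = 0.328) in WT. Smc2, the other core ATPase, was at 56.6 and 30.8 CPM in WT stiff libraries, 15.2 and 24.1 CPM in WT soft, 28.0 and 13.4 CPM in Cav1KO stiff and 24.3 and 24.1 CPM in Cav1KO soft. It rose in WT (1.09 (SE 0.37, limma adjusted p = 0.0379)) and differed by -0.30 (SE 0.37, limma adjusted p = 0.515) in Cav1KO. The condensin I subunits Ncapg and Ncapd2 were called higher in WT (0.55 and 0.60), and in Cav1KO Ncapg was called (0.52) and Ncapd2 was not (0.24, limma adjusted p = 0.156).

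The 2 transcription factors were called higher on stiff gels in WT, and the proliferation marker lay at the threshold. Mybl2, B-Myb, the partner of MuvB, was at 86.1 and 78.8 CPM in WT stiff libraries, 27.8 and 37.7 CPM in WT soft, 69.6 and 60.6 CPM in Cav1KO stiff and 26.6 and 25.8 CPM in Cav1KO soft. It had the largest rise of the 45 members in both genotypes, with 1.32 (SE 0.14, limma adjusted p = 0.00018) and 1.28 (SE 0.14, limma adjusted p = 0.000122), and 23.08% of its windows are shared with other listed genes. Foxm1, the forkhead factor of G2 and mitosis genes, was at 132 and 116 CPM in WT stiff libraries, 58.4 and 79.4 CPM in WT soft, 82.7 and 68.5 CPM in Cav1KO stiff and 56.5 and 58.1 CPM in Cav1KO soft. Its WT rise was 0.85 (SE 0.15, limma adjusted p = 0.00185), and its Cav1KO difference, 0.39 (SE 0.15, limma adjusted p = 0.0506), did not pass the test. Mki67, which encodes the Ki-67 antigen of the surface of mitotic chromosomes, was at 17.6 and 12.7 CPM in WT stiff libraries, 3.44 and 9.46 CPM in WT soft, 10.3 and 3.95 CPM in Cav1KO stiff and 22.0 and 18.7 CPM in Cav1KO soft. WT soft 1 and Cav1KO stiff 2 were the lowest libraries and both Cav1KO soft libraries the highest. The WT difference was 1.22 (SE 0.45, limma adjusted p = 0.04997), and it was not called with the pseudocount of 0.25 (limma adjusted p = 0.0561), no filter (0.0502), no trend (0.0721), a replicate block (0.0676) or edgeR (0.0646). With 1 library left out it ran from 0.61 without WT soft 1 to 1.84 without WT soft 2. In Cav1KO it fell on stiff gels by 1.51 (SE 0.45, limma adjusted p = 0.0191), a call that was lost without Cav1KO stiff 2 (-0.91) and without either Cav1KO soft library. The interaction was 2.73 (SE 0.63, limma adjusted p = 0.0373).

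The 3 interaction calls depended on single libraries. For Cenpe the interaction was 1.94 (adjusted p = 0.0903) without WT stiff 1, 2.0 (adjusted p = 0.0968) without WT soft 1, 2.03 (adjusted p = 0.0597) without Cav1KO stiff 2, 2.26 (adjusted p = 0.119) without Cav1KO soft 1 and 2.44 (adjusted p = 0.0892) without Cav1KO soft 2, all by limma. The calls of Top2a and Mki67 were lost in the same 5 fits, and that of Top2a also without WT soft 2 (1.92 (adjusted p = 0.0541) by limma). The estimates stayed positive, from 1.29 to 1.98 for Top2a and from 2.12 to 3.35 for Mki67 across these fits with 1 library left out. The number of members with a positive call also moved with the library left out, and the share of all genes called in those fits was not counted.

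**Figure D3:**
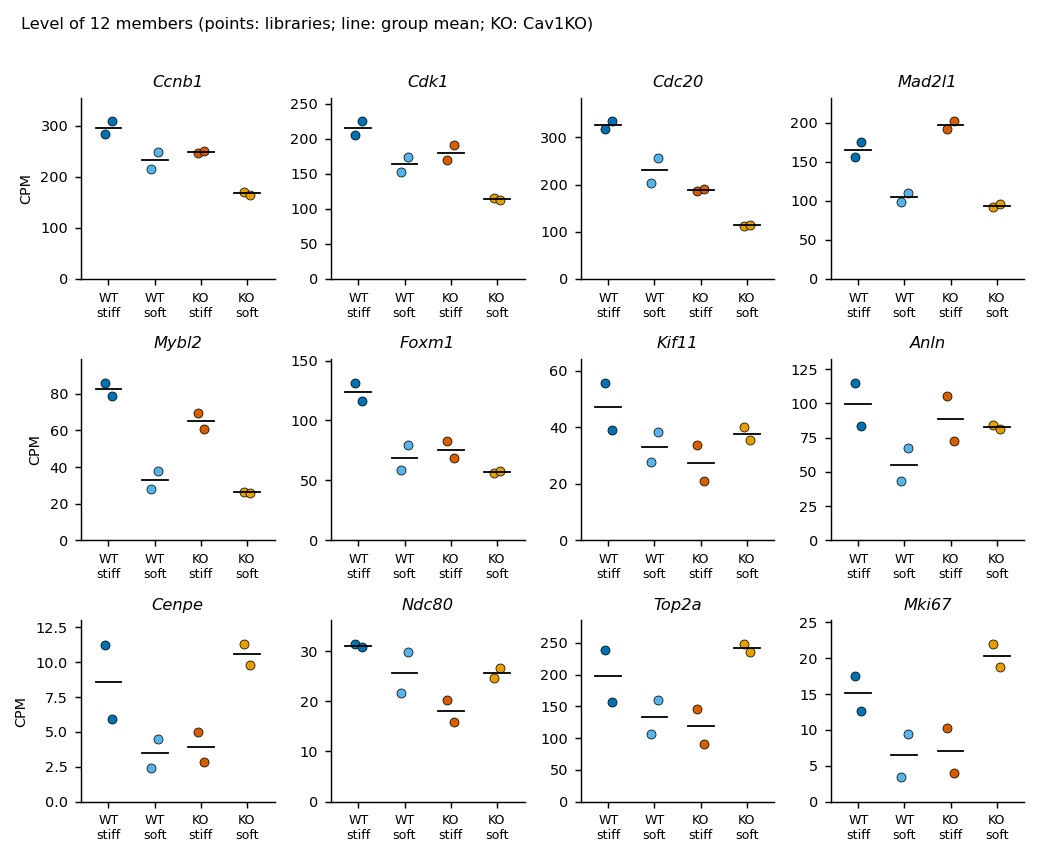
Level of 12 members in CPM (vertical axis from 0), by group, with each library as a point and the group mean as a line. Cdk1, Ccnb1, Cdc20, Mad2l1 and Mybl2 are higher on stiff than on soft gels in both genotypes, while Cenpe, Top2a and Mki67 are highest or near their highest in the 2 Cav1KO soft libraries.

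Coding length moved with these differences. The coding sequence of the members ran from 402 to 9531 bases with a median of 2235, against 1377 over all coding genes, and their GC content had a median of 46.9% against 50.2%. Among all 11671 tested genes with a coding length, those over 4 kb were low in Cav1KO stiff 2 (median deviation -0.50 on the log2 scale from the mean of the gene) and WT soft 1 (-0.24) and high in WT stiff 1 (0.29) and in Cav1KO soft 1 and 2 (0.34 and 0.28). The 6 members over 4 kb (Cenpe, Cenpf, Espl1, Top2a, Ncapd2 and Mki67) had median deviations of -0.76, -0.81, 0.71, 0.61 and 0.52 in the same libraries. The Spearman correlation of coding length with the interaction was 0.80 over the 45 members and 0.50 over all genes, with the stiffness effect in Cav1KO -0.63 and -0.31, and with that in WT 0.57 and 0.09. These are correlations across genes of the same 8 libraries, and genes are not independent replicates. In Cav1KO the stiffness effect had a median of 0.70 for the 8 members under 1 kb, 0.54 for the 12 of 1 to 2 kb, -0.10 for the 19 of 2 to 4 kb and -0.94 for the 6 over 4 kb, where all genes had 0.15, -0.0016, -0.22 and -0.61. The part of coding length in the results above was not tested. With the trend removed from each library, an alternative chosen after seeing the data, 35 members were called higher on stiff gels in WT and 0 lower, against 27.4% and 30.2% of all genes, and 22 higher and 6 lower in Cav1KO, against 29.2% and 31.6%. The interaction then called 5 positive (Cenpe, Ndc80, Hmmr, Top2a and Mki67) and 1 negative (Espl1), against 6.3% and 7.69%, and the values of Cenpe, Top2a and Mki67 were 1.45 (adjusted p = 0.0107), 1.06 (adjusted p = 0.0152) and 1.66 (adjusted p = 0.0286) by limma.

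**Figure D4:**
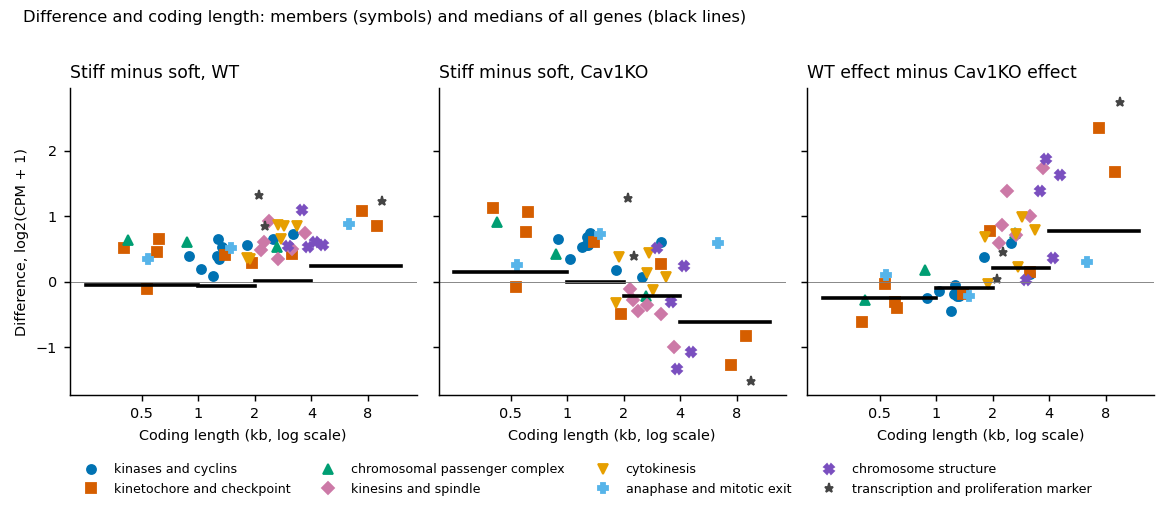
Difference in log2(CPM + 1) against coding length (log scale, kb) for the stiffness effect in WT, the stiffness effect in Cav1KO and the WT effect minus the Cav1KO effect. Symbols are the 45 members by role and black lines the medians of all genes in 4 length classes. In Cav1KO both the members and all genes run downward with length, from medians of 0.70 and 0.15 under 1 kb to -0.94 and -0.61 over 4 kb.

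The genotypes were then compared on each substrate, in contrasts that share their libraries with the stiffness effects above and are no separate evidence. On stiff gels 30 members were lower in Cav1KO than in WT and 2 were higher, against 26.6% and 25% of all genes, and the median difference was -0.50 where all genes had -0.03. On soft gels 13 were lower and 5 higher, against 29.9% and 24.1% of all genes, with medians of -0.15 and -0.03. The 2 higher members on stiff gels were Mad2l1 (0.25 (SE 0.09, limma adjusted p = 0.0363)) and Spc24 (0.51 (SE 0.11, limma adjusted p = 0.00458)), for which both Cav1KO stiff libraries lay above both WT stiff libraries. The 5 higher members on soft gels were Cenpe (1.41), Cenpf (1.13), Top2a (0.89), Smc4 (1.16) and Mki67 (1.64). The call of Mad2l1 was lost without WT stiff 1 (0.17), without Cav1KO stiff 2 (0.22), without either Cav1KO soft library, without the trend in the fit and with the coding-length trend removed (0.13, limma adjusted p = 0.149). With the coding-length trend removed Cenpf was at 0.47 on soft gels (limma adjusted p = 0.121) and not called, and Cenpe was at 0.85, Top2a at 0.55, Smc4 at 0.90 and Mki67 at 0.95, all called. The count of 30 was 14 without WT stiff 1 and 15 without Cav1KO stiff 2. The count of 5 was 0 without WT soft 1, 1 without Cav1KO soft 1, 2 without Cav1KO soft 2, and 8 without either Cav1KO stiff library. On soft gels the 13 lower members became 21 without WT soft 1.

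Called lower in Cav1KO on both substrates were 10 members (Ccna2, Ccnb1, Cdk1, Aurka, Nek2, Spc25, Birc5, Cdca8, Cdc20 and Ncapg). Of all genes 26.6% were lower on stiff and 29.9% on soft gels, and the share lower on both was not counted. Cdc20 had the largest loss on soft gels, with -1.0 (SE 0.10, limma adjusted p = 6.25e-05) there and -0.79 (SE 0.10, limma adjusted p = 0.000277) on stiff gels, and its 4 WT libraries were all above its 4 Cav1KO libraries. Among the kinases and cyclins, 8 of 10 were lower in Cav1KO on stiff gels, of which 3 or 4 remained without any 1 of the 4 stiff or of the 2 Cav1KO soft libraries, and 7 on soft gels, led by Ccna2 on both (-0.56 (SE 0.10, limma adjusted p = 0.00155) and -0.60 (SE 0.10, limma adjusted p = 0.000952)). Cdk1 differed by -0.26 (SE 0.09, limma adjusted p = 0.0455) on stiff and -0.51 (SE 0.09, limma adjusted p = 0.00187) on soft gels. For Ccnb1 the differences were -0.25 and -0.47, for Aurka -0.36 and -0.54, and for Nek2 -0.27 and -0.48. Plk1 (-0.50) and Bub1 (-0.33) were called on stiff gels, Aurkb on soft gels (-0.39), and Ttk on stiff (-0.51) and Ccnb2 on soft gels (-0.43). In the passenger complex Birc5 had -0.47 and -0.74 and Cdca8 -0.74 and -0.55, all called, and Incenp was called on stiff gels (-0.87).

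On stiff gels 4 of 6 kinesins and spindle genes and 3 of 6 cytokinesis genes were lower in Cav1KO, and on soft gels 0 of either were called by limma or by edgeR. The shares lower on stiff gels were 66.7% and 50%, against 26.6% of all genes. On stiff gels 2 of those 4 calls and 1 of those 3 remained without WT stiff 1 or without Cav1KO stiff 2. At an unadjusted p below 0.05 on soft gels, 2 kinesins and spindle genes were higher and 0 lower, and 1 cytokinesis gene was higher and 1 lower. Hmmr had the largest loss of its role on stiff gels, -1.07 (SE 0.28, limma adjusted p = 0.0128), followed by Kif18a (-1.03), Kif2c (-0.80) and Kif11 (-0.79). Among cytokinesis genes Prc1 had -0.82 (SE 0.16, limma adjusted p = 0.00311), Kif20a -0.76 and Ect2 -0.33. All 3 anaphase genes were lower on stiff gels, with -0.35 for Ube2c and -0.62 for Espl1. In the chromosome structure role 4 of 5 were lower on stiff gels, with -1.07 (SE 0.37, limma adjusted p = 0.0382) for Smc2, -0.41 for Ncapg and -0.39 for Ncapd2. None of these 4 calls remained without WT stiff 1 or without Cav1KO stiff 2 (limma), 1 (Ncapg) remained without either Cav1KO soft library and 2 without WT stiff 2. Top2a was lower in Cav1KO on stiff (-0.74 (SE 0.27, limma adjusted p = 0.0484)) and higher on soft gels (0.89 (SE 0.27, limma adjusted p = 0.0221)), as was Cenpe, at -0.94 (SE 0.33, limma adjusted p = 0.0411) and 1.41 (SE 0.33, limma adjusted p = 0.00666). The Cenpe difference on stiff gels was -0.53 without WT stiff 1 and -0.62 without Cav1KO stiff 2. Without the trend in the fit neither gene was called on stiff gels (limma adjusted p = 0.0767 for Top2a and 0.0562 for Cenpe). Foxm1 was lower on stiff gels (-0.71 (SE 0.15, limma adjusted p = 0.00405)), and Mybl2 was called on neither (limma adjusted p = 0.0722 and 0.102). The other members called on neither substrate were Nuf2, Kif4, Tpx2, Kif23, Anln and Racgap1. With the coding-length trend removed the counts were 29 lower and 1 higher on stiff gels, against 31.3% and 26.8% of all genes, and 22 lower and 7 higher on soft gels, against 33% and 28%.

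**Figure D5:**
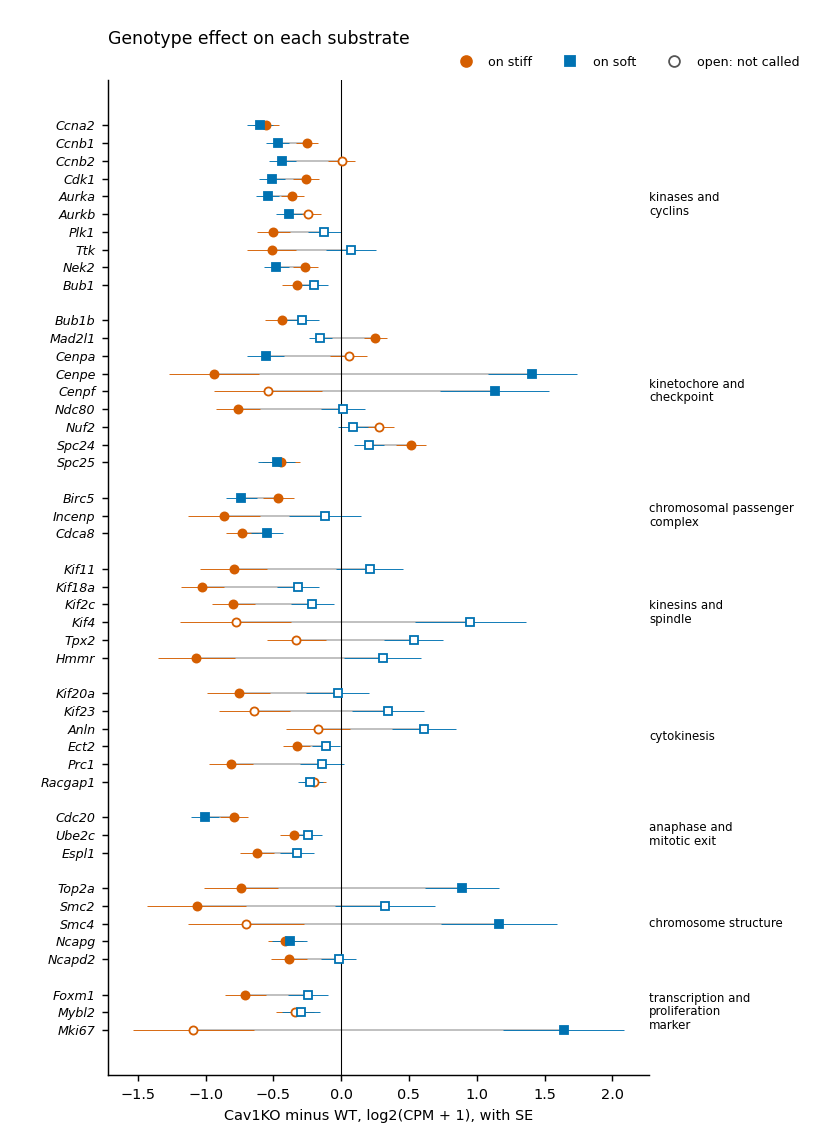
Cav1KO minus WT difference of each member in log2(CPM + 1), on stiff gels (circles) and on soft gels (squares), with bars of 1 SE, and open symbols for values that did not pass an adjusted p of 0.05. Most circles lie left of 0, and the squares of Cenpe, Cenpf, Top2a, Smc4 and Mki67 lie at 0.89 or more to the right.

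Genes that work with the members were read from written lists. Of 83 further G2 and mitosis genes, 47 were higher and 2 lower on stiff gels in WT, and 39 were higher and 6 lower in Cav1KO, with medians of 0.46 and 0.27. These are 56.6% and 2.41% in WT, where all genes had 22.1% and 26.3%, and 47% and 7.23% in Cav1KO, where all genes had 27.9% and 28.2%. The count of 47 was 23 without WT soft 1 and 30 without WT stiff 1, and the count of 6 was 16 without Cav1KO stiff 1 and 2 without either Cav1KO soft library. In WT the largest rises were Ckap5 (1.10), which lengthens microtubules, and Lmnb1 (0.98), lamin B1, and the 2 falls were Pttg1 (-0.36), securin, and Cdc25b (-0.27), a phosphatase that activates Cdk1. In Cav1KO Trip13 (1.37), an ATPase that remodels Mad2, and Cenpw (1.2), a centromere protein, rose most, and Numa1 (-1.39), a spindle pole protein, and Casc5 (-1.05), the kinetochore scaffold Knl1, fell most. The interaction called 2 positive and 2 negative, 2.41% each against 4.47% and 6% of all genes. Cav1KO was lower than WT for 28 of the 83 on stiff and 29 on soft gels (33.7% and 34.9%), near the 26.6% and 29.9% of all genes, and higher for 8 and 10 (9.64% and 12%, against 25% and 24.1%).

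Of 15 subunits of the APC/C, the ubiquitin ligase that Cdc20 activates, 3 rose and 2 fell on stiff gels in WT (20% and 13.3%, against the 22.1% and 26.3% of all genes), and 9 rose and 2 fell in Cav1KO (60% and 13.3%, against 27.9% and 28.2%). The count of 9 was 5 without Cav1KO stiff 2 and 4 without either Cav1KO soft library. Anapc15 had the largest rise in both (0.75 and 1.17), and Anapc13 the largest fall in both (-0.54 and -0.66). Of 10 cohesin genes, the substrate of separase and its loaders, 3 rose in WT, led by Pds5a (0.66), and 2 fell in Cav1KO, the loader Nipbl (-1.45) and Stag2 (-0.32). These shares, 30% and 20%, are near or below the 22.1% higher in WT and 28.2% lower in Cav1KO of all genes, and with 1 library left out the counts ran from 0 to 5 and from 1 to 5. Of 21 DREAM, MuvB, RB and E2F genes, 12 rose and 2 fell in WT (57.1% and 9.52%) and 13 rose and 1 fell in Cav1KO (61.9% and 4.76%), and the count of 13 was 7 without Cav1KO soft 2. All genes had 22.1% higher and 26.3% lower in WT, and 27.9% and 28.2% in Cav1KO. E2f8 (1.32) and E2f2 (1.16) rose most in WT and E2f1 (1.28) and Tfdp1 (1.17) in Cav1KO. The gene that fell in both was Rbl2, the p130 subunit of DREAM, with -0.37 (SE 0.12, limma adjusted p = 0.0283) in WT and -0.65 (SE 0.12, limma adjusted p = 0.00158) in Cav1KO. Of 44 G1/S and replication genes, 41 rose in WT (93.2%) and 40 in Cav1KO (90.9%), against 22.1% and 27.9% of all genes. Their medians were 0.66 and 0.94, and Cdc6 (1.43) led in WT and Ccne2 (1.81) in Cav1KO. The interaction called 0 of them positive and 8 negative (18.2%), against 4.47% and 6% of all genes.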

How the data were processed

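Poly(A) RNA of 8 libraries (4 groups of 2, from 500 ng of total RNA) was sequenced as single reads of 60 bases. The submitters' processing notes name CASAVA 1.8.2, cutadapt, RSEM 1.2.3 and the GRCm38 build, and the aligner and any filter on genes are not given in the sources used here. The deposited signal values are TMM-normalized CPM: the authors divided the reads of each gene by an effective library size. This is the library size times a scaling factor that is estimated without the most extreme genes. In each library 100% of the values were whole multiples of the value of 1 read (within 0.1 of a step), so reads could be recovered. Library totals were 17089836 to 19944952 reads. The 2 libraries of every group differed by more than counting noise (chi-square per degree of freedom from 3.47 to 17.8).

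The 12494 genes that reached 1 CPM in 2 or more libraries were fitted on log2(CPM + 1) in limma 3.58.1 (R 4.3.3), with a mean-variance trend and 4 residual degrees of freedom, in a single fit of all 4 groups. Two-sided p-values were adjusted by Benjamini and Hochberg over all genes tested, with a threshold of 0.05. Shares of all genes at an unadjusted p below 0.05 were not counted. The added 1 CPM makes fitted differences of low genes too small. Alternatives were edgeR 4.0.16 on the recovered reads, another pseudocount (0.25), other filters, median centring, no trend, a replicate block, and leaving out libraries. Removing the coding-length trend (a spline with 4 degrees of freedom per library) and leaving out WT soft 1 together with Cav1KO stiff 2 were chosen after seeing the data. Annotation was GENCODE M21 (GRCm38), which matched all 45 members, and promoters were from RefSeq (GRCm38.p6).

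The members and lists were chosen with earlier results of these data known. Every member is accounted for. Those given in every library are the textbook members of each role, the member with the largest difference of its role in each of the 4 pairwise contrasts, those with a called interaction and those called against the direction of most, and from the other lists up to 2 rises and 2 falls were named. Reads shared with copies or with genes on the other strand were found from the annotation.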

Additional observations from a re-analysis of the deposited data

Results flagged for a closer look

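The response to stiffness differed between the genotypes for 3 members by the test of the difference itself, the interaction of stiffness and genotype in limma. For Cenpe the stiffness effect in WT minus that in Cav1KO was 2.35 on the log2(CPM + 1) scale (adjusted p = 0.0261), with an effect of 1.09 in WT and -1.26 in Cav1KO. For Mki67 it was 2.73 (adjusted p = 0.0373), with 1.22 in WT and -1.51 in Cav1KO. For Top2a it was 1.63 (adjusted p = 0.039), with 0.57 in WT, which did not pass the test, and -1.06 in Cav1KO. The 3 are 6.67% of the members, near the 4.47% of all genes called positive and 6% called negative. All 3 calls were lost in the same 5 of the 8 fits with 1 library left out (without WT stiff 1, WT soft 1, Cav1KO stiff 2, Cav1KO soft 1 or Cav1KO soft 2), and the WT effect of Mki67 was at the threshold (adjusted p = 0.04997) and not called by edgeR (adjusted p = 0.0646). The coding sequences of these genes are 7413, 9531 and 4584 bases long, and over all genes the interaction rose with coding length, from a median of -0.25 under 1 kb to 0.78 over 4 kb. With the coding-length trend removed, an alternative chosen after seeing the data, the differences were smaller and still called. They were 1.45 for Cenpe, 1.66 for Mki67 and 1.06 for Top2a. The part of coding length in these 3 results was not tested.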

How the results depend on the processing

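The counts of members called kept within 1.5 times of the values above under the other pseudocount, no filter, the filter of 5 CPM, median centring and edgeR. Without the mean-variance trend, the interaction called 1 member as positive, and the genotype comparison called 1 as higher in Cav1KO on stiff and 3 on soft gels. With the coding-length trend removed these were 5 for the interaction (and 1 negative), 1 on stiff gels, and 22 lower on soft gels. Without WT soft 1 and Cav1KO stiff 2 together, 20 were higher on stiff gels in WT, 3 lower in Cav1KO and 0 positive in the interaction, and Cav1KO was higher for 2 and lower for 24 on soft gels. With 1 library left out, the members higher on stiff gels in WT ran from 14 to 39 and those lower in Cav1KO from 0 to 9, the interaction from 0 to 18 positive and 0 to 3 negative, and the genotype comparison from 1 to 3 higher and 14 to 34 lower on stiff and from 0 to 8 higher and 9 to 21 lower on soft gels. A fit with a lone library assumes that it varies like the other groups. The shares of all genes called in the fits with 1 library left out were not counted.

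The labels tie the replicate numbers to no shared culture or day, and deviations of same-numbered libraries correlated from -0.37 to 0.42 over the pairs of groups, so pairing by number was not established and is not known. With a replicate block the interaction called 3 members as negative (Ccnb2, Mad2l1 and Cenpa), and the other counts of calls stayed within 1.5 times.

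Of the 225 differences of the 45 members, 254 of 3825 alternative fits lost a call, 130 gained one and 85 changed the sign, and each sign change was of a value that had not passed the test. For the stiffness differences printed above, signs changed in Cav1KO with the coding-length trend removed for Kif2c (0.0060) and Kif23 (0.080), under median centring for Spc25 (0.012), and without WT soft 1 and Cav1KO stiff 2 for Incenp (0.012), Kif2c (0.080), Tpx2 (0.011), Kif23 (0.27) and Smc2 (0.20). With 1 library left out, the differences that changed sign ran in Cav1KO from -0.19 to 0.33 for Ttk, -0.16 to 0.013 for Spc25, -0.46 to 0.012 for Incenp, -0.29 to 0.08 for Kif2c, -0.55 to 0.011 for Tpx2, -0.16 to 0.42 for Kif20a, -0.53 to 0.27 for Kif23, -0.19 to 0.34 for Anln and -0.81 to 0.20 for Smc2, and in WT from -0.025 to 0.20 for Ccnb2, -0.25 to 0.033 for Spc25 and -0.065 to 1.14 for Smc4. With 2 libraries a group, differences of members with few reads, such as Cenpe and Cenpf, are the least precise.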
